A study of Mus musculus with 10 samples.

Results

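The 34 endothelial cell genes examined here were chosen by name, as rows of the deposited count table whose gene symbol equals one of a list of genes used to recognise the cells that line blood vessels. All 34 were found, 1 row each, among 40481 distinct Ensembl genes. Total RNA was sequenced from dorsal root ganglia of C57BL/6 mice, the paired nodes along the spine where the cell bodies of sensory neurons lie among glia and small vessels. There were 5 libraries from mice given oxaliplatin, a platinum chemotherapy drug known for damaging sensory nerves, at a labelled dose of 10 mg/kg, and 5 from mice given vehicle. The design text puts collection after 8 weeks of treatment. Strain and tissue are the same in all 10 libraries, and the labels state neither age nor the dosing schedule. Nothing in them says that each library is its own mouse, so the p-values describe the spread of these libraries only.

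Endothelial cells form the wall between blood and tissue. Junction proteins such as VE-cadherin hold them together, receptors for vascular endothelial growth factor (VEGF), angiopoietins and bone morphogenetic proteins (BMPs) set their growth and rest, and transcription factors of the ETS and SOX families keep their identity. In brain and nerve, transporters and tight junctions make the vessel wall a barrier, whereas many vessels around the neuron cell bodies of a ganglion are more permeable. The question put to these genes was whether the vessels' transcripts differed after chronic oxaliplatin. In bulk tissue, more endothelial cells and more RNA per cell cannot be told apart.

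Each library held 52963470 to 60984426 counted reads, and the endothelial genes together took 0.0616 to 0.0691% of them after oxaliplatin and 0.0471 to 0.0646% after vehicle. All 34 passed the filter on low counts, the lowest at 12 counts in a library (Erg). Neuron markers summed to 15200 to 18200 CPM (counts per 1000000 reads of the composition-scaled library size) after oxaliplatin and 17300 to 20400 CPM after vehicle, and the endothelial genes to 608 to 685 CPM and 473 to 658 CPM. The highest vehicle sum was that of replicate 5, at 658 CPM, and the other vehicle libraries lay between 473 and 534 CPM, below every oxaliplatin library. Vehicle replicate 5 was the highest vehicle library for 24 of the 34 genes.

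Promoter sequences were at hand for 19 of the 34 genes, as windows from 250 bases before to 50 bases after each gene's start, from RefSeq on build GRCm38.p6. Erg and Fli1, both on the list, code for ETS factors that bind sites around the letters GGAA. The motifs searched, on both strands, were CCGGAAG and CAGGAAG for ETS factors, which share the letters GGAAG, and CCATTGT for SOX factors. The windows below show Clec14a, which rose, beside Egfl7 and Robo4, which did not pass the test, with ETS matches in capitals.
Clec14a (chr12:58269209-58269508, minus strand): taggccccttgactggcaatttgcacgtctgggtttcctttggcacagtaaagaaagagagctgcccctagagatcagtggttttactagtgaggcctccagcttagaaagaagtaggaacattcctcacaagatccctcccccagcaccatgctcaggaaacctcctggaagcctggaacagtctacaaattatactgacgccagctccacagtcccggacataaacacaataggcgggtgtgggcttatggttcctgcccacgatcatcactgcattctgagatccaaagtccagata
Egfl7 (chr2:26580833-26581132, plus strand): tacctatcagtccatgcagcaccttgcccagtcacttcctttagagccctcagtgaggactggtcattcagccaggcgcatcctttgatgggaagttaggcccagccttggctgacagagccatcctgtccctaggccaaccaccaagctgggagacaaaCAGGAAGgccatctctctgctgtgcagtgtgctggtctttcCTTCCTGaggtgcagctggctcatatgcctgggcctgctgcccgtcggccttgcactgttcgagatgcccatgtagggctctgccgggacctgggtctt
Robo4 (chr9:37401722-37402021, plus strand): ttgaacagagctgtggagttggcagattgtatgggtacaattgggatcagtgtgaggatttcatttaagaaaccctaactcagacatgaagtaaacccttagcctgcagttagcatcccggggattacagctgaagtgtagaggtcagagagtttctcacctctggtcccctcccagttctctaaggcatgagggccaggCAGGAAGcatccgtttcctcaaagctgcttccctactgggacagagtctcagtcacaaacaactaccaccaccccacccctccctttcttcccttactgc
The Clec14a window holds neither ETS motif. The Egfl7 window shown holds CAGGAAG once on each strand, and that of Robo4 once. Other Egfl7 windows hold 1 and 0 ETS matches. These windows are examples and not a comparison of called with uncalled genes, since Clec14a is the only called gene among the 19. Counting a gene once where any of its windows holds a motif, CAGGAAG was found for 4 of the 19 genes (Egfl7, Emcn, Erg and Robo4), or 21.1%, against 14.8% of 27025 genes with such windows. CCGGAAG was found for 0 of the 19, against 9.93%, and CCATTGT for 0 of the 19, against 4.15%. A match is a run of letters and not a measured site, and a window without one says nothing of the factors.

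After oxaliplatin, 5 of the 34 genes rose and 0 fell (edgeR quasi-likelihood test, two-sided, Benjamini-Hochberg adjusted p below 0.05 over all 18401 tested genes). They were Pecam1, the adhesion protein CD31 of endothelial junctions, Cdh5, which codes for VE-cadherin, Plvap, which forms the diaphragms of permeable vessels, Clec14a, a lectin-like surface protein of endothelium, and Vwf, which codes for von Willebrand factor, the clotting protein that endothelial cells store and release. The increases ran from 1.61-fold to 2.15-fold. That is 14.7% of the list, where 1.27% of all tested genes rose and 0.772% fell. For 4 of the 34 every oxaliplatin library lay above every vehicle library, where 2.25% of all genes did so, and for 0 every oxaliplatin library lay below, where 1.77% did. At an unadjusted p below 0.05, 12 of the 34 were higher and 0 lower, where 8.51% of all tested genes were higher and 7.8% lower. DESeq2 called 5 higher and 0 lower, where it called 3.08% of all genes with an adjusted p higher and 2.4% lower. With limma voom 8 were higher and 0 lower, where 2.39% and 1.86% of all genes were.

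The other 29 genes spread around a smaller difference. Over all 34 the median log2 fold change was 0.25, against 0.01 over all tested genes, and over the 29 not called it was 0.14. Of the 34 estimates, 30 lay above 0 and 4 below, those of Esam, Sox17, Mfsd2a and Emcn. The genes are not independent of each other, since they were read in the same libraries.

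**Figure D1:**
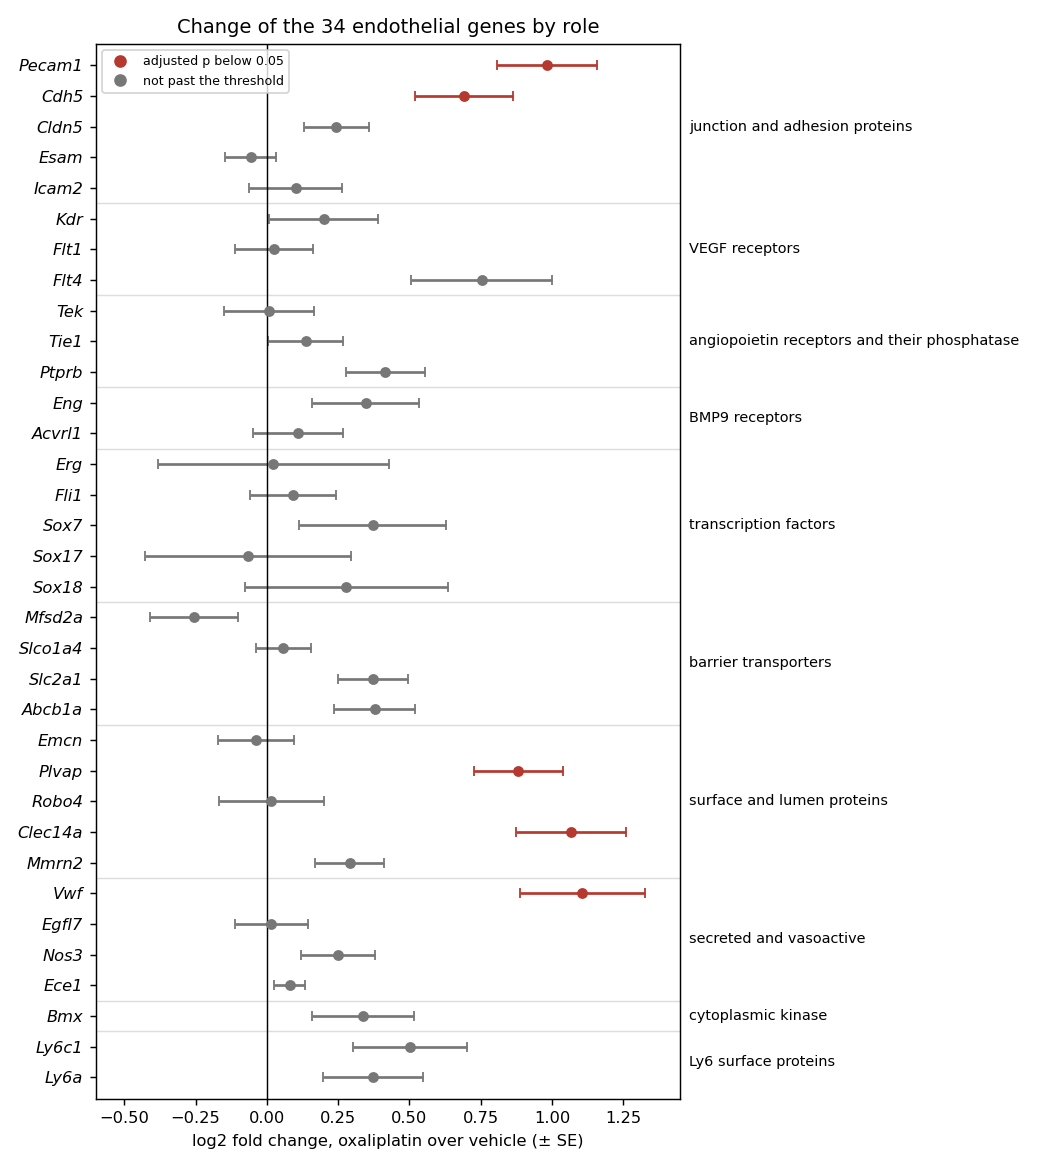
Log2 fold change of each of the 34 endothelial genes, oxaliplatin over vehicle (horizontal axis), with its SE as bars, grouped by role down the page. The 5 genes past the threshold, in red, run from 0.69 (Cdh5) to 1.11 (Vwf), and the lowest estimate is that of Mfsd2a at -0.26.

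Among the 5 junction and adhesion genes, 2 rose. Pecam1 (ENSMUSG00000020717) had 30.3, 15.4, 18.3, 25.6 and 19.7 CPM in oxaliplatin replicates 1 to 5, against 8.19, 10.9, 10.9, 12.4 and 12.8 CPM in vehicle replicates 1 to 5. Every oxaliplatin library was above every vehicle library, with replicate 1 the highest. This was a log2 fold change of 0.98 ± 0.18 (SE) and a fold of 1.98 (edgeR adjusted p = 0.0164). It kept the call in 9 of the 10 fits that left out 1 library, and without oxaliplatin replicate 4 the edgeR adjusted p was 0.0504. Cdh5 (ENSMUSG00000031871) had 8.16, 6.03, 8.39, 9.28 and 9.19 CPM after oxaliplatin, against 3.74, 6.06, 5.02, 3.89 and 6.74 CPM after vehicle. Oxaliplatin replicate 2 lay within the vehicle range and the other 4 above it. The log2 fold change was 0.69 ± 0.17, or 1.61-fold. The edgeR adjusted p was 0.048, and 0.0519 with DESeq2's size factors. Leaving out oxaliplatin replicate 1, 3, 4 or 5 gave edgeR adjusted p values of 0.103, 0.0799, 0.139 and 0.147, and leaving out vehicle replicate 1, 3 or 4 gave 0.11, 0.0832 and 0.145.

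The other 3 junction genes did not pass. Cldn5, the claudin that seals tight junctions of endothelium, averaged 18.3 ± 2.74 CPM after oxaliplatin and 15.5 ± 2.06 CPM after vehicle (SD, n = 5 each), at a log2 fold change of 0.24 ± 0.11 (edgeR adjusted p = 0.302). Esam and Icam2, both adhesion molecules of endothelium and platelets, were at -0.06 ± 0.09 and 0.10 ± 0.16. For Esam the 95% interval of the log2 fold change ran from -0.26 to 0.15, which leaves out an increase of the size seen for Pecam1.

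**Figure D2:**
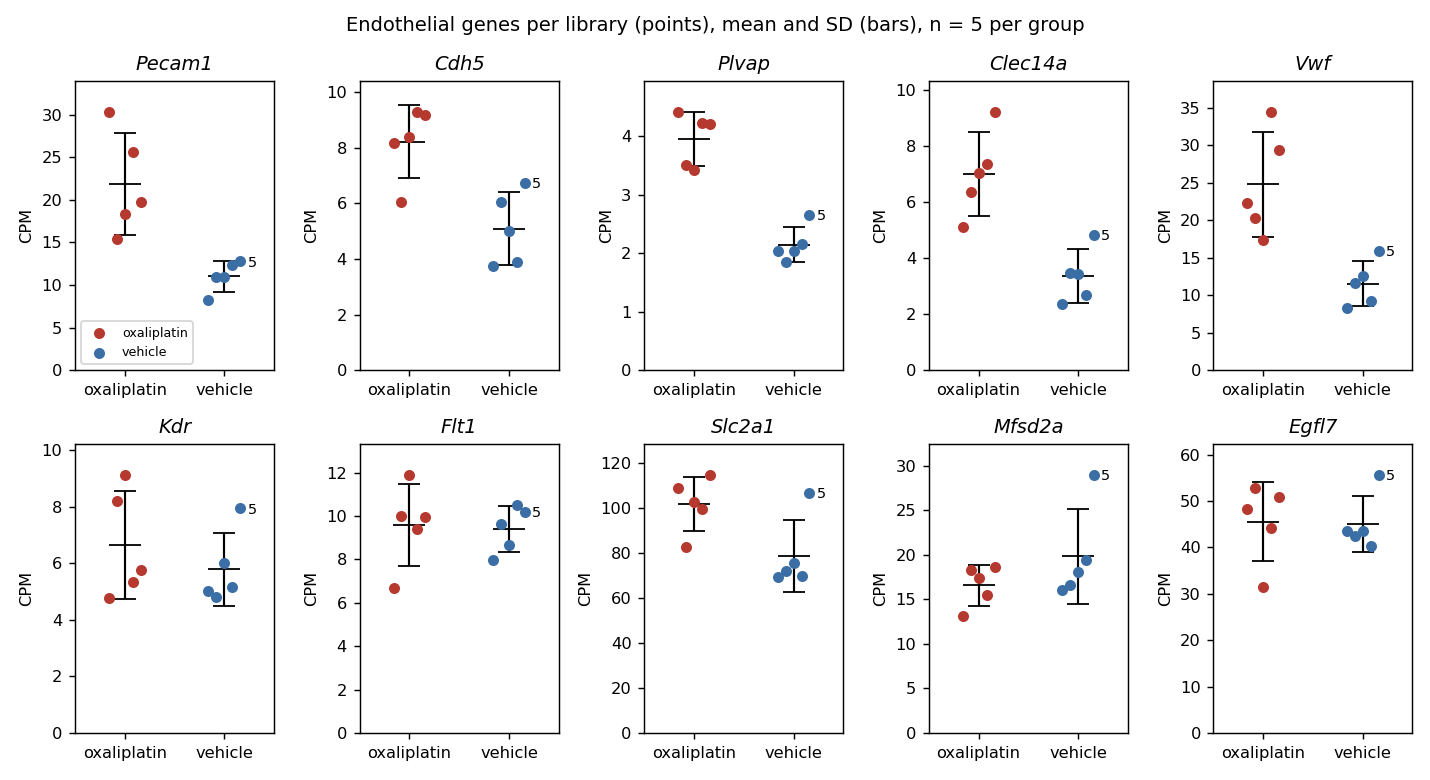
Levels in CPM (vertical axis, from 0) of 10 endothelial genes in each library, oxaliplatin left of vehicle, with mean and SD as bars and vehicle replicate 5 marked by its number. The 5 genes of the upper row passed the threshold, and vehicle replicate 5 is the highest vehicle library for Slc2a1 (107 CPM), Mfsd2a (29.0 CPM) and Egfl7 (55.7 CPM).

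Receptors for vessel growth signals showed no call in edgeR. Of the 3 VEGF receptors 0 passed (1 higher at an unadjusted p below 0.05, and 0 by DESeq2 or limma voom). Kdr, the main signalling receptor for VEGF-A, averaged 6.65 ± 1.91 CPM after oxaliplatin and 5.79 ± 1.30 CPM after vehicle (SD, n = 5 each), and Flt1, which binds VEGF-A and dampens its signal, 9.58 ± 1.87 and 9.41 ± 1.07 CPM. Their log2 fold changes were 0.20 ± 0.19 and 0.03 ± 0.14. Flt4, the receptor for VEGF-C, found above all on lymphatic endothelium, had 2.38, 1.01, 1.81, 2.47 and 2.40 CPM after oxaliplatin, against 0.940, 1.18, 1.56, 1.10 and 1.19 CPM after vehicle. Oxaliplatin replicate 2 was within the vehicle range and the other 4 lay above it. The estimate was 0.75 ± 0.25 (edgeR adjusted p = 0.135). It passed in 1 of the 18 alternatives run, that without oxaliplatin replicate 2, at 0.92 with an edgeR adjusted p of 0.0267. That fit is singled out here with its values known. Over the 10 fits that left out 1 library the highest edgeR adjusted p was 0.297.

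Of the genes for angiopoietin signalling, 0 of 3 passed in edgeR (1 higher at an unadjusted p below 0.05, 0 by DESeq2, 1 by limma voom). Tek, the angiopoietin receptor Tie2, was at 0.01 ± 0.16, and Tie1, its partner, at 0.14 ± 0.13. Ptprb, the phosphatase that restrains Tie2, had 9.34, 11.2, 9.74, 14.0 and 11.6 CPM after oxaliplatin and 6.98, 8.42, 10.3, 6.87 and 9.39 CPM after vehicle. The groups overlapped in part, and the estimate of 0.42 ± 0.14 did not pass in edgeR (adjusted p = 0.139) but did in limma voom (adjusted p = 0.0468). Eng and Acvrl1, which together receive BMP9 on endothelium, were at 0.35 ± 0.19 and 0.11 ± 0.16, with 0 of 2 past the threshold by edgeR, DESeq2 or limma voom, and 0 at an unadjusted p below 0.05.

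Of the 5 transcription factors, Erg, Sox7, Sox17 and Sox18 had the widest standard errors of the 34 genes. In this set 0 passed by edgeR, DESeq2 or limma voom, and 0 at an unadjusted p below 0.05. Fli1, an ETS factor that blood cells also use, averaged 6.56 ± 1.32 CPM after oxaliplatin and 6.16 ± 0.848 CPM after vehicle (SD, n = 5 each). Erg, the ETS factor most restricted to endothelium, had 0.889, 0.205, 0.496, 0.307 and 1.03 CPM after oxaliplatin, against 0.452, 0.655, 0.50, 0.714 and 0.559 CPM after vehicle. The oxaliplatin libraries lay both below and above the vehicle libraries, and the 95% interval of its log2 fold change ran from -0.91 to 0.95. Sox7, Sox17 and Sox18, factors of vessel formation, were at 0.37 ± 0.26, -0.07 ± 0.36 and 0.28 ± 0.36, so that increases of up to 0.77 to 1.10 on the log2 scale lay within their 95% intervals.

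Among surface and lumen proteins, 2 of 5 rose. Plvap (ENSMUSG00000034845) had 4.41, 3.50, 3.42, 4.23 and 4.20 CPM after oxaliplatin, against 2.03, 1.85, 2.04, 2.16 and 2.65 CPM after vehicle. The groups did not overlap and each was narrow, with 200 to 262 reads counted in an oxaliplatin library and 99 to 142 in a vehicle library. The log2 fold change was 0.88 ± 0.16, or 1.84-fold (edgeR adjusted p = 0.0113). Clec14a (ENSMUSG00000045930) had 5.10, 6.36, 7.04, 7.35 and 9.21 CPM after oxaliplatin, against 2.35, 3.46, 3.43, 2.67 and 4.83 CPM after vehicle. All oxaliplatin libraries were again above all vehicle libraries, with vehicle replicate 5 the closest. The log2 fold change was 1.07 ± 0.19, or 2.10-fold (edgeR adjusted p = 0.0119). Plvap and Clec14a kept their calls in all 18 alternatives run, with highest adjusted p values of 0.043 and 0.048.

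Mmrn2, the matrix protein that Clec14a is known to bind, averaged 13.1 ± 1.22 CPM after oxaliplatin and 10.7 ± 1.99 CPM after vehicle (SD, n = 5 each). Its estimate of 0.29 ± 0.12 did not pass (edgeR adjusted p = 0.242). Emcn, a sialomucin of capillaries and veins, and Robo4, a guidance receptor that stabilises vessels, were at -0.04 ± 0.13 and 0.02 ± 0.18. Their 95% intervals ended at 0.27 and 0.44, below the estimates for Plvap and Clec14a.

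Of the 4 secreted and vasoactive genes, Vwf (ENSMUSG00000001930) rose. It had 22.3, 20.3, 17.4, 34.4 and 29.4 CPM after oxaliplatin, against 8.23, 11.6, 12.6, 9.25 and 15.9 CPM after vehicle. The groups did not overlap, and oxaliplatin replicates 4 and 5 were the highest. The log2 fold change of 1.11 ± 0.22, or 2.15-fold, was the highest estimate of the 34 (edgeR adjusted p = 0.0293). Leaving out oxaliplatin replicate 1, 4 or 5 ended its call (edgeR adjusted p = 0.0567, 0.0594 and 0.0894), as did leaving out vehicle replicate 1, 2, 3 or 4 (0.0601, 0.0617, 0.0532 and 0.0865). It was also lost with no filter on low counts (0.0709), and the log2 fold change stayed between 0.96 and 1.29 in all alternatives.

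The other secreted and vasoactive genes did not pass. Egfl7, a secreted regulator of vessel formation, had 48.3, 52.9, 31.5, 44.3 and 50.8 CPM after oxaliplatin and 43.5, 42.4, 43.6, 40.3 and 55.7 CPM after vehicle, at 0.02 ± 0.13. Ece1, the enzyme that releases endothelin, lay between 111 and 121 CPM after oxaliplatin and between 104 and 113 CPM after vehicle, at 0.08 ± 0.05, and its 95% interval ended at 0.20. Many cell types express Ece1. Nos3, the endothelial nitric oxide synthase, was at 0.25 ± 0.13 (edgeR adjusted p = 0.362), and Bmx, a kinase of arterial endothelium, at 0.34 ± 0.18 (0.370).

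The 4 transporters of the blood-brain and blood-nerve barriers showed no call in edgeR (2 higher at an unadjusted p below 0.05, 0 by DESeq2, 1 by limma voom). Slc2a1, the glucose transporter Glut1 of barrier endothelium and perineurium, had 109, 82.9, 103, 99.8 and 115 CPM after oxaliplatin, against 69.5, 72.0, 75.6, 69.9 and 107 CPM after vehicle. All 5 oxaliplatin libraries lay above vehicle replicates 1 to 4, and vehicle replicate 5 lay among them. The estimate was 0.37 ± 0.12 (edgeR adjusted p = 0.147). Of the 10 fits that left out 1 library 1 called Slc2a1, that without vehicle replicate 5, at 0.51 with an edgeR adjusted p of 0.00712. Abcb1a, the drug efflux pump P-glycoprotein, was at 0.38 ± 0.14 (edgeR adjusted p = 0.188), and Slco1a4, an organic anion carrier of brain vessels, at 0.06 ± 0.10. Mfsd2a, the lipid carrier that keeps transcytosis low in barrier vessels, had 13.1, 18.3, 17.4, 15.5 and 18.6 CPM after oxaliplatin, against 16, 16.6, 18.1, 19.4 and 29.0 CPM after vehicle. Its estimate of -0.26 ± 0.15 was the lowest of the 34 and did not pass (edgeR adjusted p = 0.449).

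The Ly6 surface proteins Ly6c1 and Ly6a, the second also known as Sca-1, mark mouse endothelium and some blood cells. In edgeR 0 of 2 passed (1 higher at an unadjusted p below 0.05, 0 by DESeq2, 1 by limma voom). Ly6c1 had 49.1, 59.2, 71.9, 63.9 and 65.9 CPM after oxaliplatin, against 30.4, 31.9, 47.2, 46.2 and 63.2 CPM after vehicle. Vehicle replicate 5 was again the one that overlapped, and the estimate was 0.50 ± 0.20 (edgeR adjusted p = 0.247). Ly6a was at 0.37 ± 0.17 (edgeR adjusted p = 0.321). Of the 10 fits that left out 1 library 1 called Ly6a, that without vehicle replicate 5, at 0.54 (edgeR adjusted p = 0.0436). Ly6c1 has a near-identical neighbour, Ly6c2, of monocytes, at 1.67 ± 0.554 CPM after oxaliplatin and 1.53 ± 0.859 CPM after vehicle (SD, n = 5 each), and the sources used here do not say how reads that match both were counted.

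**Figure D3:**
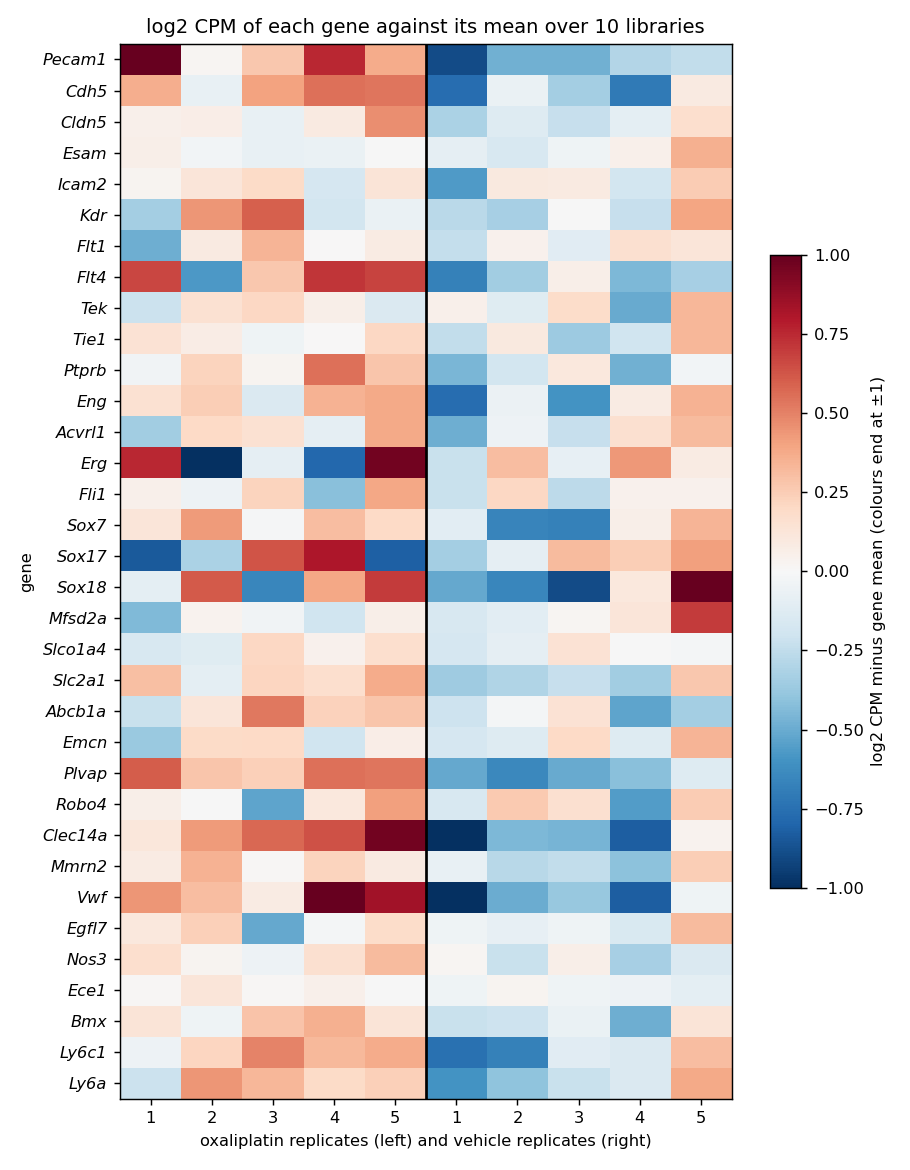
Log2 CPM of each endothelial gene (down the page) in each library, minus the gene's mean over 10 libraries, oxaliplatin replicates 1 to 5 left of vehicle replicates 1 to 5. Vehicle replicate 1 lay above the gene mean for 2 of 34 genes and vehicle replicate 5 for 25, while the oxaliplatin libraries did so for 21 to 30.

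Vehicle replicate 5 stood with the oxaliplatin libraries over much of the list. The median deviation of the 34 genes from their means was 0.25 in that library on the log2 scale, -0.26 to -0.10 in the other vehicle libraries and 0.05 to 0.28 after oxaliplatin. Without it, 9 of the 34 genes had every oxaliplatin library above every remaining vehicle library, Cldn5, Slc2a1, Mmrn2, Bmx and Ly6c1 beside the 4 above, where 3.2% of all tested genes did so and 2.67% lay the other way. That library was set aside with its values known. The edgeR test without it called 7 genes, the same 5 with Slc2a1 and Ly6a, at a median of 0.33 for the list, where 1.06% of all genes were higher and 0.471% lower. Without vehicle replicate 5 and oxaliplatin replicate 1 together, 8 were higher, where 0.769% of all genes were higher and 0.411% lower.

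Other genes of vessel signalling were read from lists. Of 10 tested vessel growth factors 1 rose and 0 fell, at a median log2 fold change of -0.12. It was Angpt2, the angiopoietin that loosens vessels by opposing Tie2 signalling, which averaged 51.1 ± 7.86 CPM after oxaliplatin and 29.6 ± 6.77 CPM after vehicle (SD, n = 5 each), at 0.79 ± 0.16 (edgeR adjusted p = 0.0289). The groups did not overlap, and the call ended when oxaliplatin replicate 1, 4 or 5 or vehicle replicate 2 or 4 was left out (highest edgeR adjusted p 0.0832), and also with no filter on low counts. Vegfa, the ligand of Kdr and Flt1, was at -0.04 ± 0.18, and Angpt1, which activates Tie2, at -0.20 ± 0.22. Among 18 Notch, guidance and peptide receptor genes 1 rose and 0 fell in edgeR, at a median of -0.09. Ramp2, which with Calcrl forms the adrenomedullin receptor of endothelium, averaged 22 ± 3.73 CPM after oxaliplatin and 14.9 ± 2.22 CPM after vehicle, at 0.56 ± 0.12 (edgeR adjusted p = 0.0283), while Calcrl was at 0.08 ± 0.14. Leaving out oxaliplatin replicate 4 or 5, or vehicle replicate 1, 2 or 4, ended the call of Ramp2 (highest edgeR adjusted p 0.0962). Of the 18 estimates 6 lay above 0 and 12 below. DESeq2 called 1 of the 18 higher and 1 lower, and limma voom 1 higher and 2 lower. At an unadjusted p below 0.05, 2 were higher, Ramp2 and S1pr1 (0.242 ± 0.112), and 3 lower. The 3 lower were Aplnr (-0.998 ± 0.357), Ednrb (-0.495 ± 0.176) and Jag2 (-0.338 ± 0.144).

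Of 12 markers of arteries, veins or capillaries 0 passed in edgeR (4 higher and 2 lower at an unadjusted p below 0.05, 2 lower by DESeq2, 0 by limma voom), at a median of 0.19. Of all tested genes, 8.51% were higher and 7.8% lower at that unadjusted p, and DESeq2 called 2.4% lower. Of the 12 estimates 8 lay above 0 and 4 below. The smallest p among the 12 markers were those of Gkn3, an arterial marker, at -1.07 ± 0.30 (edgeR adjusted p = 0.0818), and Ackr1, the chemokine-binding receptor of veins, at -0.26 ± 0.08 (0.103). The 4 higher at an unadjusted p below 0.05 were Nr2f2 (0.22 ± 0.08), Gpihbp1 (0.59 ± 0.23), Gja5 (1.28 ± 0.54) and Rgcc (0.34 ± 0.14). Of 5 leukocyte adhesion genes 0 passed by edgeR, DESeq2 or limma voom, and 0 at an unadjusted p below 0.05, with Vcam1 at -0.44 ± 0.38, Sele at -0.43 ± 0.86 and Icam1 at 0.12 ± 0.39. Their sum was 13.1 to 18.5 CPM after oxaliplatin, and after vehicle it was 41 CPM in replicate 5 and at most 14.1 CPM in the others.

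**Figure D4:**
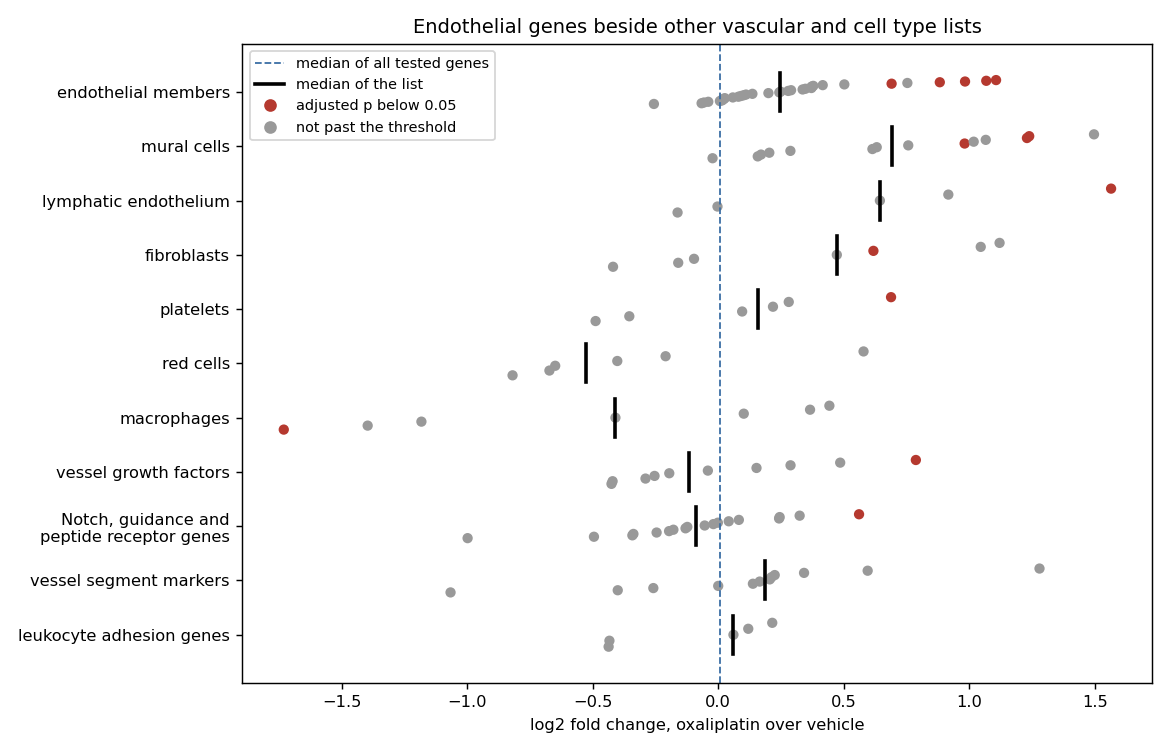
Log2 fold change, oxaliplatin over vehicle (horizontal axis), of the tested genes of 11 lists, 1 point per gene, with the list median as a black bar and the median of all tested genes as a dashed line. The endothelial list has 5 red points, past the threshold, at a median of 0.25, and the mural cell list 3 at a median of 0.69.

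Markers of other cells moved in the same libraries. Of 14 mural cell genes, which mark the pericytes and muscle cells around vessels, 3 rose and 0 fell, at a median log2 fold change of 0.69. They were the potassium channel subunits Kcnj8 (1.23 ± 0.21, edgeR adjusted p = 0.0101) and Abcc9 (0.98 ± 0.21, 0.0248) and the mitochondrial subunit Cox4i2 (1.24 ± 0.18, 0.00403), while Pdgfrb and Rgs5 were at 0.17 ± 0.09 and 0.16 ± 0.13. The mural genes summed to 253 to 348 CPM after oxaliplatin and to 196 to 249 CPM after vehicle, without overlap. DESeq2 called 5 of the 14 higher and limma voom 7. Of 7 fibroblast genes 1 rose, Pdgfra (0.62 ± 0.14), with 4 higher by DESeq2 and 4 by limma voom. Of the 7 estimates 4 lay above 0 and 3 below, Col1a1 (-0.16 ± 0.36), Col1a2 (-0.10 ± 0.20) and Lum (-0.42 ± 0.25). The fibroblast list summed to 888 to 1120 CPM after oxaliplatin and 735 to 963 CPM after vehicle. Dcn was its largest part, at means of 767 and 553 CPM. Of 5 tested lymphatic genes 1 rose, Mmrn1 (1.56 ± 0.36), which blood vessel endothelium and platelets also make, with 2 higher by DESeq2 and 2 by limma voom. The list median was 0.64, with 3 estimates above 0 and 2 below, Pdpn (-0.16 ± 0.15) and Reln (-0.003 ± 0.127). Lyve1 was at 0.64 ± 0.16 (edgeR adjusted p = 0.0526). The defining lymphatic factor Prox1 was at 0.319 ± 0.231 CPM after oxaliplatin and 0.168 ± 0.0887 CPM after vehicle (SD, n = 5 each), and the lymphatic list summed to 44.6 to 73.1 CPM and 52.6 to 63.0 CPM. Pdpn and Reln were the largest parts of those sums, at means of 27.0 and 20.9 CPM after oxaliplatin. Genes of dividing cells had 3 of 6 higher, Top2a, Aurkb and Cdc20 (4 by DESeq2, 2 by limma voom), at sums of 6.98 to 15.9 CPM after oxaliplatin and 5.61 to 8.03 CPM after vehicle. Their estimates lay above 0 for 5 and below for 1, Birc5 (-0.18 ± 0.20), which averaged 3.51 CPM after oxaliplatin and 3.98 CPM after vehicle. Of 3 tested adipocyte genes 0 passed by edgeR, DESeq2 or limma voom, with 2 higher at an unadjusted p below 0.05. The smallest p were those of Cfd (3.29 ± 1.26) and Cidec (2.88 ± 1.2). The list summed to 545 CPM in oxaliplatin replicate 1, to 12 to 38.6 CPM in the other oxaliplatin libraries and to 5.39 to 25.4 CPM after vehicle.

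Neural markers were read in the same way. Of 3 satellite glia genes 0 rose and 1 fell (2 lower by DESeq2, 1 by limma voom), at a median of -0.41. It was Fabp7, a lipid-binding protein of satellite glia, at 91.2 to 178 CPM after oxaliplatin and 210 to 312 CPM after vehicle (-0.98 ± 0.18, edgeR adjusted p = 0.0298). Of 6 neuron genes 0 rose and 1 fell, also by DESeq2 and limma voom, at a median of -0.14. It was Nefh, the heavy neurofilament of large sensory neurons (-0.63 ± 0.13, edgeR adjusted p = 0.04). Of 6 Schwann cell genes 0 passed by edgeR, DESeq2 or limma voom (1 higher at an unadjusted p below 0.05), at sums of 8580 to 11500 CPM after oxaliplatin and 7890 to 10600 CPM after vehicle, and its smallest p were those of the myelin genes Mbp (0.33 ± 0.13) and Prx (0.33 ± 0.16). In the 10 fits that left out 1 library, Kcnj8 and Cox4i2 kept their calls in 10, Abcc9 in 6, Aurkb and Cdc20 in 5, Pdgfra, Fabp7 and Nefh in 3, and Mmrn1 and Top2a in 2. The part of all these cell types in the changes of the endothelial genes was not tested.

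Blood cells share some of the listed genes, since platelets carry Vwf, Pecam1, Esam and Icam2. Of 6 platelet genes 1 rose, Pf4 (0.69 ± 0.17), which some tissue macrophages also make, and the list summed to 17.1 to 21.0 CPM after oxaliplatin and 11.4 to 16.9 CPM after vehicle, without overlap. Pf4 was the largest part of that sum, at means of 10.2 and 6.32 CPM, and a sum without it was not taken. Of the 6 estimates 4 lay above 0 and 2 below, Ppbp (-0.49 ± 0.63) and Gp1bb (-0.35 ± 0.33). Pf4 kept its call in 3 of the 10 fits that left out 1 library. The uncalled platelet genes Gp1ba, Gp9 and Ppbp had means of 0.262, 0.496 and 0.508 CPM after oxaliplatin and 0.225, 0.407 and 0.713 CPM after vehicle. Those of Gp1bb were 0.515 and 0.660 CPM, and those of Itga2b were higher, at 7.21 and 6.75 CPM. Haemoglobin transcripts, a measure of red cells left in the vessels, summed to 176, 8.99, 679, 52.3 and 77.3 CPM in oxaliplatin replicates 1 to 5, against 233, 134, 371, 387 and 429 CPM in vehicle replicates 1 to 5. The oxaliplatin libraries lay both below and above the vehicle libraries. In oxaliplatin replicates 1 to 5, Vwf had 22.3, 20.3, 17.4, 34.4 and 29.4 CPM and Pecam1 30.3, 15.4, 18.3, 25.6 and 19.7 CPM. Their relation to haemoglobin was not tested. Of 6 red cell genes 0 passed by edgeR, DESeq2 or limma voom, and 0 at an unadjusted p below 0.05, the smallest p being those of Hba-a2 (-0.67 ± 0.80) and Hbb-bs (-0.82 ± 1.03). Of 7 macrophage genes 0 rose and 1 fell, Cx3cr1 (3 lower by DESeq2, 1 by limma voom), at list sums of 21.0 to 31.2 CPM after oxaliplatin and 25.3 to 48.0 CPM after vehicle. Their estimates lay below 0 for 4 and above for 3, Mrc1 (0.37 ± 0.19), Cd68 (0.44 ± 0.29) and Cd163 (0.10 ± 0.24). The part of blood cells in the endothelial values was not tested.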

How the data were processed

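Per the file headers, the values the authors deposited are whole-number read counts by Ensembl gene, with a column for each library. STAR 2.5.1a, Partek and DESeq2 are named in the submitters' processing notes without roles. The genome build, annotation, counting step and strand were not given in the sources used here. For that reason gene coordinates are printed only for RefSeq promoter windows. Of 40757 rows, 276 repeats of an Ensembl ID, identical in counts, were dropped. Groups came from the titles. Replicates of a group differed beyond counting noise (their chi-square over its degrees of freedom was 12.8 to 53.6), and each counted as 1.

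All 18401 genes kept by filterByExpr were tested with edgeR 4.0.16 (R 4.3.3): TMM factors, robust quasi-likelihood fit on group, Benjamini-Hochberg adjustment over all genes, threshold 0.05. SE is the log2 fold change over the root of F, and 95% intervals use the t distribution with 8 degrees of freedom. The biological coefficient of variation was 19.3%. CPM use TMM-scaled library sizes. The members and lists were chosen with earlier results of these data known. The list of tight junction and other barrier genes is not reported here. All 34 members are named, and of other lists the called genes or the smallest p. Others (Vegfa, Angpt1, Calcrl, Icam1, Pdgfrb, Rgs5, Prox1, Ly6c2 and uncalled platelet genes) were added after their values were seen. So were Col1a1, Col1a2, Lum, Dcn, Birc5, Nr2f2, Gpihbp1, Gja5 and Rgcc. The same holds for Mrc1, Cd68, Cd163, Aplnr, Ednrb, Jag2, S1pr1, Lyve1, Pdpn and Reln, and for Cspg4, Cnn1, Acta2, Myh11, Tagln and Higd1b. Alternatives were DESeq2 1.42.0 (test, or size factors in edgeR), no composition factor, no or a stricter filter (1 CPM in 5 libraries), limma voom 3.58.1 with quality weights, a replicate block, and leaving libraries out.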

Additional observations from a re-analysis of the deposited data

Results flagged for a closer look

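Of 68 groups of 5 libraries (34 endothelial genes, each after oxaliplatin and after vehicle), 4 held a library whose gap to its nearest neighbour took up more than 0.71 of the group's range. Chance flags about 1 in 20 such groups, and the genes share their libraries. In 3 of them the library was vehicle replicate 5: Slc2a1 at 107 CPM (69.5 to 75.6 CPM in the other vehicle libraries), Mfsd2a at 29.0 CPM (16 to 19.4 CPM) and Egfl7 at 55.7 CPM (40.3 to 43.6 CPM). The other was Cldn5 at 23.0 CPM in oxaliplatin replicate 5, against 15.9 to 17.8 CPM in the other oxaliplatin libraries.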

How the results depend on the processing

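Of the 5 called endothelial genes, 5 stayed called under DESeq2 (5 in all), limma voom (8 in all, with Ly6c1, Ptprb and Slc2a1), no composition factor and the stricter filter, and 4 with DESeq2's size factors (without Cdh5) or no filter (without Vwf). Leaving out 1 library gave 2 to 7 genes higher and 0 lower, and leaving out vehicle replicate 5 and oxaliplatin replicate 1 together gave 8 and 0. The count was 3 or fewer in 6 of the 10 fits without 1 library (oxaliplatin replicates 1, 4 and 5, vehicle replicates 1, 3 and 4). The list median stayed between 0.17 and 0.38, with 26 to 33 estimates above 0. The stricter filter left out Erg and Sox17, and every other alternative fitted all 34 genes. Over all genes, 234 were higher and 142 lower. The counts were 521 and 406 with DESeq2, 439 and 342 with limma voom, 142 and 76 without both libraries, and 79 to 343 higher and 34 to 251 lower with 1 library left out. Higher genes made up 62.2% of all calls, and 75.4% without a composition factor.

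With the replicate number as a block, 382 genes were higher and 278 lower, and 7 endothelial genes were higher, Slc2a1 (adjusted p = 0.013) and Ly6c1 (0.0151) joining the 5. Same-numbered libraries correlated at -0.04 to 0.21 in their deviations from the group means, and 3 of 5 oxaliplatin libraries correlated best with their own number. These values do not settle whether the numbers are a pairing, and the main fit did not use them.

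For Erg, Sox7, Sox17 and Sox18, counted 12 to 137 times in a library, the intervals include changes of the size of those called, and the parts of depth and of spread between libraries in their width were not tested.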
